A study of Saccharomyces cerevisiae with 6 samples.

Results

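Molecular chaperones are proteins that help others to fold, stay soluble or be taken apart from aggregates, and this report describes the RNA levels of 35 such genes of the budding yeast Saccharomyces cerevisiae in a histone mutant. The 35 genes were chosen by name as heat shock proteins and chaperones of the cytosol and nucleus (24 genes), the mitochondrion (5 genes) and the endoplasmic reticulum (6 genes), with the heat shock factor gene HSF1 counted among the 24. All 35 had a probe set, out of 5449 genes measured, and 34 had a single one. A strain in which arginine 45 of histone H4 is replaced by histidine (H4R45H) was set against WY139, a strain with wild-type H4, with 3 one-colour Affymetrix arrays per strain. Both strains were harvested from YPD, a rich medium with glucose, in mid-log phase (optical density 0.5 to 0.7), and no heat shock is named in the labels. The comparison asks how the change of 1 residue in the core of H4 bears on RNA levels. Whether the mutant strain is a single clone, and whether the mutant H4 is its sole H4, is not given in the sources used here.

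Hsp70 and Hsp90 proteins bind unfolded or partly folded clients in a cycle driven by ATP. J-proteins bring clients to Hsp70 and start ATP hydrolysis, exchange factors release the nucleotide, and cochaperones steer Hsp90. Yeast keeps several copies of many of these genes, some transcribed all the time and some mainly under stress. The heat shock factor Hsf1 and the stress factors Msn2 and Msn4 drive the stress-induced copies. Folding in the endoplasmic reticulum also answers to a separate pathway, the unfolded protein response through Ire1 and Hac1. The mitochondrion has its own Hsp70 and chaperonin.

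Values are signals on the linear scale deposited by the authors, 1 per probe set. A difference is the log2 signal of H4R45H minus that of wild type, fitted with limma across all 5716 probe sets, and a gene is called, or said to have risen or fallen, at a Benjamini-Hochberg adjusted p under 0.05. Array values are given in the order of replicates 1, 2 and 3, and errors of means are SD over 3 arrays. The labels do not tell whether the replicates were grown as separate cultures. The p-values therefore cover the variation among 6 arrays and no more, and that variation may be technical. Each array read RNA from a whole culture, so more RNA in every cell and more cells with a high level cannot be told apart. Mean signals were 277 to 287 over the arrays, and correlations of log2 signal across probe sets were 0.9902 to 0.9945 within a strain and 0.9347 to 0.9576 between strains. Over the whole genome the median difference was 0.05 on the deposited scale and became -0.07 when the arrays were quantile normalized, a shift of the same order as the smaller differences below.

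The stress-induced copies SSA3, SSA4, SSE2 and HSP82 rose in H4R45H by 1.79 to 2.46-fold. Of their more abundant relatives SSA1, SSA2, SSB1, SSB2, SSE1 and HSC82, 3 fell as deposited, with log2 differences of -0.16 (SSA2), -0.17 (SSB1) and -0.23 (SSE1) that were not called after quantile normalization, and 3 were not called. Of the 35 genes 16 rose, 5 fell and 14 were not called, which is 45.7% and 14.3%. Over all 5449 genes 37.1% were called higher and 29.1% lower, 66.2% in either direction. On the deposited scale the share that rose was thus not far above that of all genes. By size, 10 of the 35 rose by 1.5-fold or more and 5 by 2-fold or more, against 18.0% and 8.88% of all genes, and none of the 5 falls reached 1.5-fold, against 4.29% of all genes. The median log2 difference was 0.14 over the 35 genes. The 3 arrays of each strain did not overlap in 18 genes with H4R45H above (39.8% of all genes) and in 5 with H4R45H below (31.6%). Of the 16 rises, 14 were called in the same direction in every alternative fit in which the gene was measured, the exceptions being HSF1 and JEM1. Of the 5 falls only that of SCJ1 was. Quantile normalization, median centring and cyclic loess gave 20, 14 and 21 rises and 2, 10 and 2 falls, so the number of falls rests on the scaling. Under them 26.9%, 30.3% and 30.7% of all genes were higher and 36.8%, 38.6% and 30.4% lower. After quantile and cyclic loess normalization more of the 35 genes, and fewer of all genes, were higher than as deposited.

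**Figure D1:**
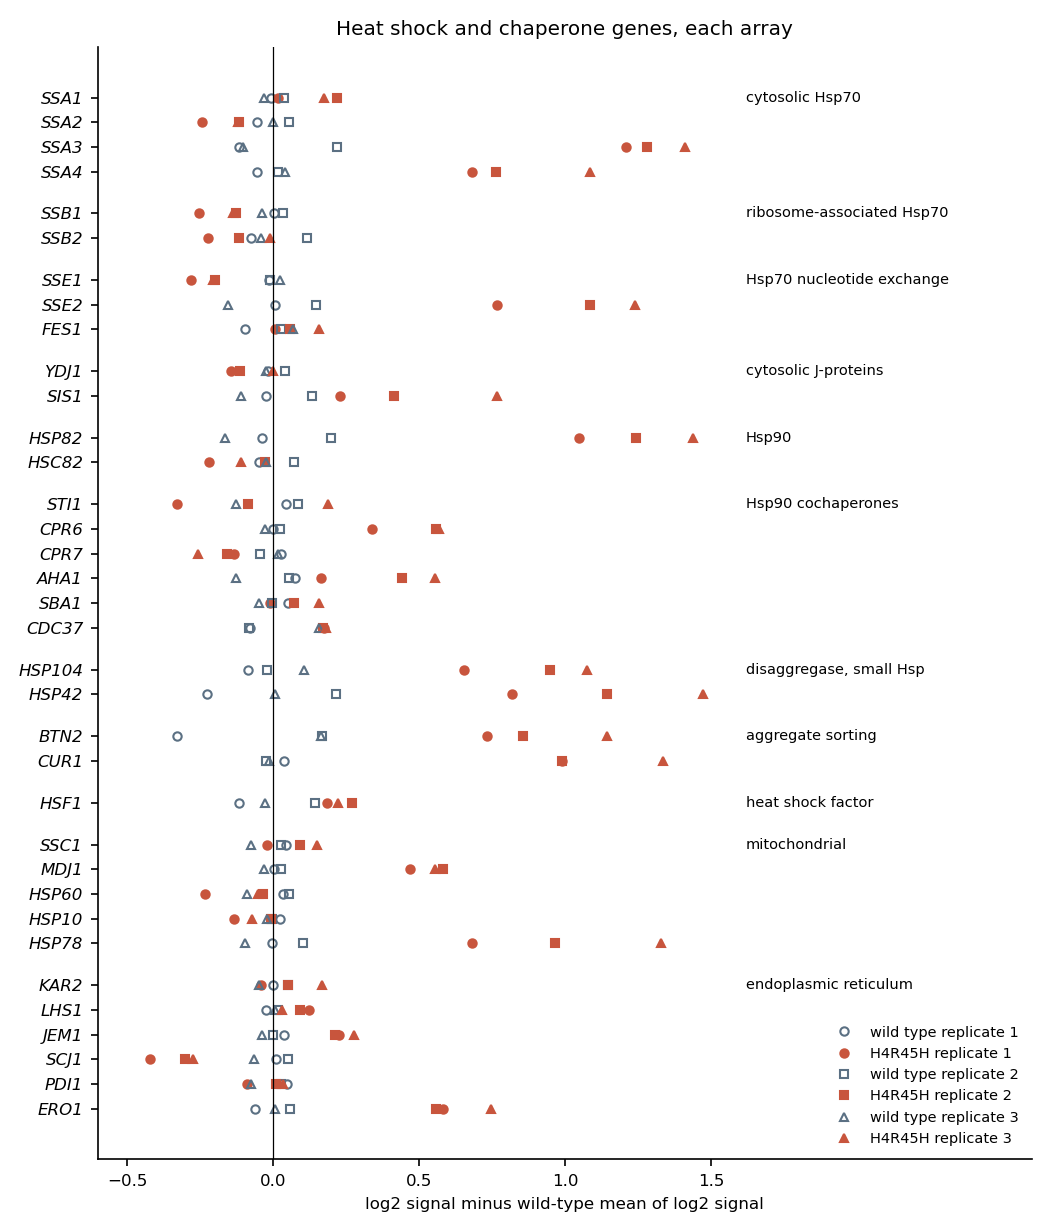
Log2 signal of each of the 35 chaperone genes on each of the 6 arrays, minus the gene's mean log2 signal over the wild-type arrays; open symbols are wild type, filled symbols H4R45H, and the shape marks the replicate. SSA3, HSP82, HSP42, CUR1 and SSE2 lie furthest to the right, at log2 differences of 1.03 to 1.30, while SSE1 and SCJ1 lie to the left.

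Differences varied with brightness, for chaperones as for the rest of the genome. Of the 35 genes 24 lay in the brightest 25% of all genes by mean signal (above 314). In that class 18.7% of all genes were called higher and 53.1% lower, and of the 24 chaperone genes 8 rose, 4 fell and 12 were not called. In the next 25% (157 to 314), where 29.6% of all genes were called higher and 35.5% lower, 4 of 7 chaperone genes rose and 1 fell. The dimmer classes held 4 chaperone genes, CUR1, JEM1, HSF1 and HSP78, and all 4 rose, among genes of which 59.2% (dimmest) and 40.9% were called higher. Whether the top of the scale is compressed is not known, so differences of the brightest genes, such as SSA2 and SSB1, may be understated.

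**Figure D2:**
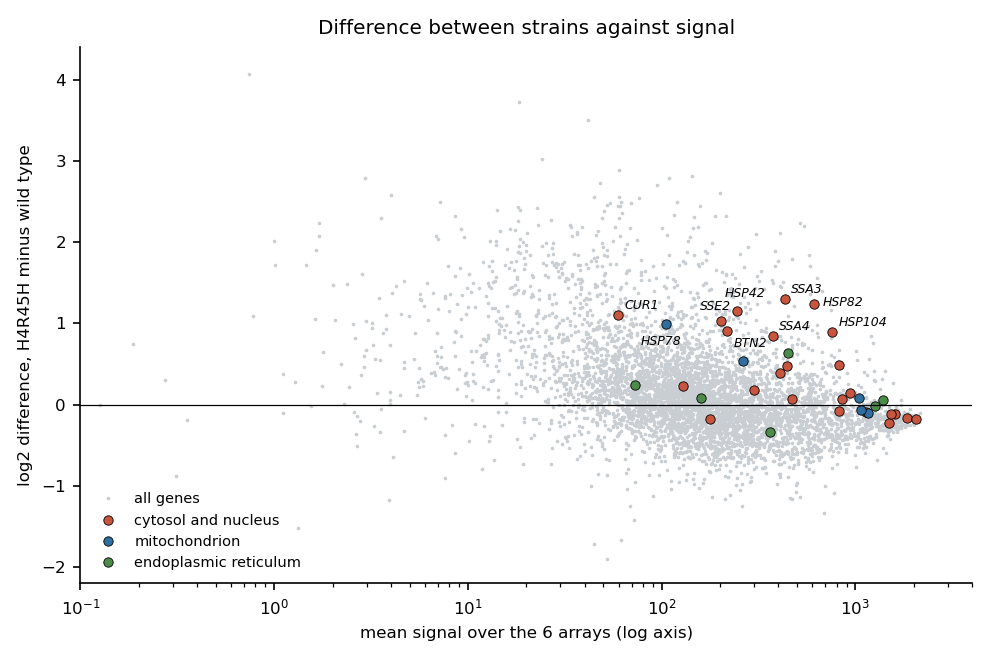
Log2 difference between strains (vertical axis) against the mean signal over the 6 arrays (horizontal axis, log scale) for all 5449 genes in grey and the 35 chaperone genes in colour by compartment. SSA3, HSP82 and HSP104 stand above 0.8 although the median difference of the brightest 25% of genes is -0.16. The bright SSB1, SSA2, SSB2, HSC82 and SSE1 lie between -0.23 and -0.12 on this deposited scale.

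Among the 4 cytosolic Hsp70 genes SSA3 and SSA4 rose, SSA2 fell as deposited and SSA1 was not called. SSA1 and SSA2 encode the Hsp70 that is made also without stress, and SSA3 and SSA4 the copies made mainly under stress. SSA3 (YBL075C) had signals of 254, 321 and 257 in wild type and 639, 671 and 734 in H4R45H. The strains were well apart, and SSA3 rose 2.46-fold (log2 difference 1.30, SE 0.092, adjusted p = 9.8e-07), the largest difference of the 35 genes. SSA4 (YER103W) had signals of 269, 283 and 288 in wild type and of 449, 476 and 594 in H4R45H. It rose 1.79-fold (log2 difference 0.84, SE 0.093, adjusted p = 2.3e-05), with replicate 3 of H4R45H above the other two. SSA1 (YAL005C) was at 894, 923 and 880.5 in wild type and 909, 1046 and 1015 in H4R45H. The lowest mutant array lay inside the wild-type range, and the log2 difference of 0.14 was not called (SE 0.057, adjusted p = 0.056). It was called after quantile normalization, cyclic loess normalization and without H4R45H replicate 1, at 0.20 to 0.29. SSA2 (YLL024C) was at 1872, 2016 and 1942 in wild type and 1641, 1790.5 and 1787 in H4R45H. All mutant arrays were below all wild-type arrays and SSA2 fell as deposited (log2 difference -0.16, SE 0.048, adjusted p = 0.012), but its difference was 0.01 after quantile and 0.04 after cyclic loess normalization, with no call.

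Differences between isoforms were compared within each array, where a single scale factor of the array drops out. A shift that varies with brightness does not drop out. The quantity is the log2 signal of one isoform minus that of another, and its change between strains was tested with a two-sided exact permutation test over the 6 arrays. With 3 arrays against 3 the smallest p this test can give is 0.1, and 0.117 after adjustment over the 7 contrasts made, so none could be called. The stress-induced pair SSA3 and SSA4, averaged, stood 2.25 ± 0.066 (SD, n = 3) log2 units below SSA1 and SSA2 in wild type and 1.16 ± 0.13 below in H4R45H. The gap between these signals, which are not levels per molecule, narrowed by 1.08 (SE 0.082, exact p = 0.1) with no overlap between strains. After quantile normalization it narrowed by 0.96. SSA4 changed less than SSA3, by 0.46 log2 units (SE 0.12, exact p = 0.1). SSA1 moved upward against SSA2 by 0.30 (SE 0.032, exact p = 0.1), again with no overlap. This relative change of SSA1 and SSA2 was 0.26 under both quantile and cyclic loess normalization.

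**Figure D3:**
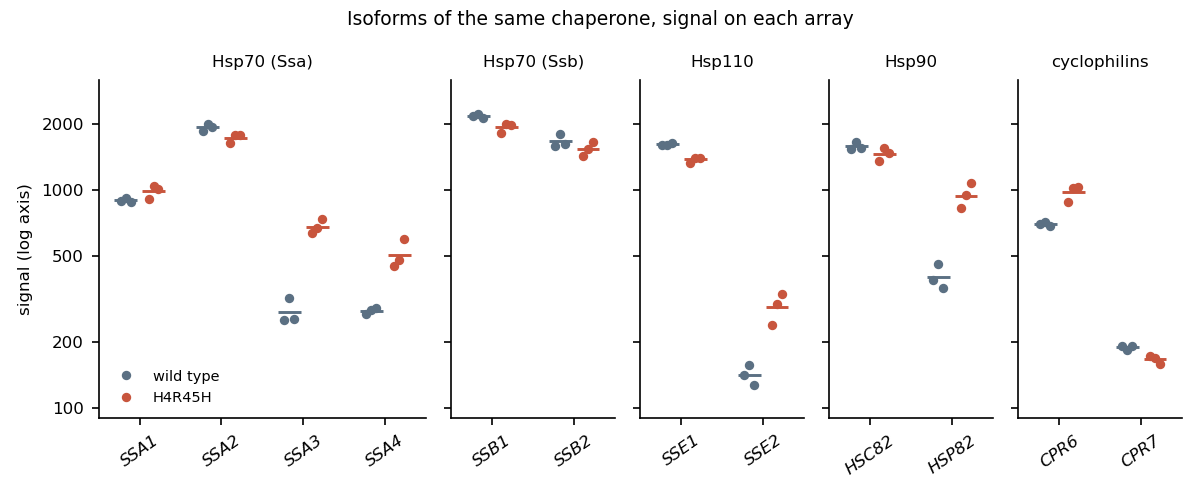
Signal on each array (points, log axis) and geometric mean (bars) for isoforms of the same chaperone in wild type and H4R45H. SSA3, SSA4, SSE2, HSP82 and CPR6 have every mutant array above every wild-type array, and the brighter partners SSA2, SSE1, SSB1 and HSC82 have mutant means slightly below wild type as deposited, where SSA2, SSB1 and HSC82 are slightly above it after cyclic loess normalization.

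Of the Hsp90 genes HSP82 rose and HSC82 was not called. HSP82 (YPL240C) is the copy raised by heat shock and HSC82 (YMR186W) the one made at a high level at all times. HSP82 had signals of 389, 458 and 356 in wild type and 824, 945 and 1080.2 in H4R45H. It rose 2.37-fold (log2 difference 1.24, SE 0.11, adjusted p = 3.7e-06), with no mutant array near the wild-type range. HSC82 had signals of 1536, 1670.0 and 1563 in wild type and 1366, 1559 and 1472 in H4R45H. The ranges met and the difference of -0.12 was not called (SE 0.055, adjusted p = 0.080), turning to 0.08 after quantile normalization and to -0.22, with a call, after median centring. It was also called lower, at -0.16, without H4R45H replicate 2. Within arrays, HSP82 gained 1.36 log2 units on HSC82 (SE 0.12, exact p = 0.1), the largest of the 7 contrasts. After quantile normalization this gain was 1.25.

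The Ssb proteins are Hsp70s that sit on the ribosome and bind chains as they emerge. SSB1 (YDL229W) was read from a probe set designed to match more than 1 transcript, with signals of 2192, 2238 and 2131 in wild type and 1833, 2002 and 1988 in H4R45H. It fell as deposited, with a log2 difference of -0.17 (SE 0.044, adjusted p = 0.0056), but was not called after quantile normalization (-0.011) or cyclic loess (0.03). The other SSB1 probe set, of the single-transcript type, had a called difference of -0.13 (adjusted p = 0.042), from 1586.5 ± 17.4 to 1455 ± 89.7 (SD, n = 3). SSB2 (YNL209W) was at 1591, 1816 and 1628 in wild type and 1435, 1545 and 1665 in H4R45H, with overlapping strains and no call (log2 difference -0.12, SE 0.064, adjusted p = 0.13). It was called lower after median centring (-0.22) and without H4R45H replicate 3 (-0.17), and its sign turned after quantile (0.06) and cyclic loess normalization (0.07). Within arrays SSB1, read from its multi-transcript probe set, changed against SSB2 by -0.06 (SE 0.059, exact p = 0.4), with overlapping strains. With the single-transcript probe set of SSB1 this change was -0.0098.

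Exchange factors for Hsp70 also differed by copy. SSE1 (YPL106C) and SSE2 (YBR169C) encode Hsp110 proteins, which free Hsp70 of its nucleotide, SSE2 being the copy raised by stress. SSE2 rose from 142, 157 and 127 to 241, 301 and 334, which is 2.04-fold (log2 difference 1.03, SE 0.12, adjusted p = 2.6e-05). SSE1 was at 1605, 1611 and 1647 in wild type and 1334, 1411 and 1404 in H4R45H. It fell as deposited (log2 difference -0.23, SE 0.041, adjusted p = 6.0e-04), but stood at -0.04 after quantile and -0.05 after cyclic loess normalization with no call. SSE2 gained 1.26 on SSE1 within arrays (SE 0.15, exact p = 0.1), and 1.02 after quantile normalization. FES1, an unrelated exchange factor, overlapped between strains at 431 to 482 and 462 to 513 and was not called (log2 difference 0.07, adjusted p = 0.31). It was called higher after cyclic loess normalization (0.19, adjusted p = 0.031).

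Among J-proteins of the cytosol, SIS1 (YNL007C), an essential partner of Hsp70 that also works with Hsp104, rose and YDJ1 was not called. SIS1 was at 369, 412 and 347 in wild type and 439.5, 499.9 and 638 in H4R45H, a rise of 1.39-fold (log2 difference 0.47, SE 0.12, adjusted p = 0.0050). The mutant arrays were far apart from each other, and without H4R45H replicate 3 the difference was 0.32 and still called. YDJ1 (YNL064C), the most general J-protein of the cytosol, was at 1154, 1203 and 1150.1 in wild type and 1058, 1080.0 and 1170 in H4R45H, with a log2 difference of -0.09 (adjusted p = 0.15). It was called lower after median centring and without H4R45H replicate 3, at -0.19 and -0.13.

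Of 6 cochaperones of Hsp90, 2 rose (33.3%, against 37.1% of all genes), 1 fell (16.7%, against 29.1%) and 3 were not called. CPR6 and CPR7 are related cyclophilins that bind Hsp90. CPR6 (YLR216C) rose from 698, 710.0 and 686 to 882, 1027 and 1036, which is 1.4-fold (log2 difference 0.49, SE 0.064, adjusted p = 7.3e-05). CPR7 (YJR032W) was at 193, 184 and 192 in wild type and 173, 169.9 and 159 in H4R45H and fell (log2 difference -0.18, SE 0.063, adjusted p = 0.026). That call ended without any single one of wild type replicates 1 and 3 and H4R45H replicates 2 and 3 (adjusted p = 0.055 to 0.083). CPR6 gained 0.67 on CPR7 within arrays (SE 0.11, exact p = 0.1), and 0.86 after quantile normalization. AHA1, which speeds up the ATPase of Hsp90, rose from 377, 372 and 328 to 402, 486 and 526 (1.31-fold, log2 difference 0.39, SE 0.096, adjusted p = 0.0047). STI1, which joins Hsp70 to Hsp90, was at 874, 899.7 and 776 in wild type and 675, 800.1 and 966 in H4R45H, where the arrays spread on both sides of the wild-type range. It was not called (log2 difference -0.08, SE 0.11, adjusted p = 0.56), was called lower at -0.21 without H4R45H replicate 3 and turned to 0.05 without H4R45H replicate 1. SBA1, which stabilises the closed form of Hsp90, had a difference of 0.07 that was not called (adjusted p = 0.26), but it was called higher after quantile (0.20) and cyclic loess normalization (0.22). CDC37, which brings protein kinases to Hsp90, was at 268, 267 and 316 against 319.5, 318 and 321, just missing the threshold (log2 difference 0.18, adjusted p = 0.0501), and without wild type replicate 3 it was called at 0.26. It was also called after quantile normalization (0.18, adjusted p = 0.0496), after cyclic loess (0.25, adjusted p = 0.013) and with the multi-transcript probe sets removed (adjusted p = 0.0497).

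HSP104, HSP42, BTN2 and CUR1 rose, where 37.1% of all genes were called higher. HSP104 (YLL026W), the ATPase that pulls proteins out of aggregates, had 526, 549 and 599.6 in wild type and 877, 1076 and 1174 in H4R45H. It rose 1.86-fold (log2 difference 0.89, SE 0.095, adjusted p = 1.8e-05). HSP42 (YDR171W), a small heat shock protein that gathers misfolded proteins, rose 2.21-fold, from 141, 191 and 166 to 291, 364 and 457 (log2 difference 1.15, SE 0.15, adjusted p = 8.1e-05). BTN2 (YGR142W) and CUR1 (YPR158W) are related sorting factors that direct misfolded proteins to deposit sites. BTN2 rose 1.88-fold, from 127, 179 and 178 to 264, 288 and 351 (log2 difference 0.91, SE 0.14, adjusted p = 2.2e-04). CUR1 rose 2.15-fold from a dim signal of 41.6, 39.9 and 40.2 to 80.6, 80.6 and 102 (log2 difference 1.11, SE 0.10, adjusted p = 6.7e-06), and with a pseudocount of 50, which weighs dim signals less, its difference was 0.60. After quantile normalization it was 0.72. HSF1 (YGL073W), the heat shock factor itself, was at 110.1, 132 and 117 in wild type and 136, 144 and 139 in H4R45H. It rose 1.17-fold as deposited (log2 difference 0.23, SE 0.078, adjusted p = 0.025), a call lost after quantile normalization (0.08), median centring (0.12) and cyclic loess (0.15). It also ended without wild type replicate 1, wild type replicate 3 or H4R45H replicate 2 (adjusted p = 0.064 to 0.10). The activity of a transcription factor is not read by its RNA level.

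Over the 24 genes of the cytosol and nucleus 12 rose (50%, against 37.1% of all genes) and 4 fell (16.7%, against 29.1%), with a median log2 difference of 0.20. The mitochondrial genes had a median of 0.08 over 5 and those of the endoplasmic reticulum 0.07 over 6, against 0.05 for all genes. After median centring the 3 medians were 0.098, -0.028 and -0.032 in the same order, with the median of all genes at -0.05. Quantile normalization gave 0.23, 0.22 and 0.06, with all genes at -0.07, and cyclic loess 0.27, 0.24 and 0.11, with all genes at -0.009. The gap between the cytosolic and mitochondrial medians thus depended on the scaling. The difference between compartments was not tested.

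In the mitochondrion the disaggregase and a J-protein rose, and the abundant folding machines were not called. The rises were 40% of the 5 genes, against 37.1% of all genes, and 0 fell, against 29.1%. HSP78 (YDR258C), the mitochondrial relative of HSP104, rose from 74.3, 80.0 and 69.7 to 119.5, 146 and 187 (1.99-fold, log2 difference 0.99, SE 0.14, adjusted p = 1.1e-04). Its difference was 0.80 after quantile normalization and 0.67 with a pseudocount of 50, with a call in each. MDJ1 (YFL016C), the J-protein partner of the mitochondrial Hsp70, rose from 218, 222 and 213 to 301, 326 and 320.2 (1.45-fold, log2 difference 0.54, SE 0.059, adjusted p = 2.1e-05). Both strains were tight for MDJ1, whereas the mutant arrays of HSP78 were spread. SSC1 (YJR045C), the mitochondrial Hsp70 that draws in and folds imported proteins, was at 970 to 1054 in wild type and 1007 to 1135 in H4R45H. HSP60 and HSP10, which form the chaperonin chamber and its lid, were at 1128 to 1246 and 1076 to 1109.5 in wild type and at 1020 to 1171 and 995 to 1086 in H4R45H. SSC1 (log2 difference 0.08), HSP60 (-0.11) and HSP10 (-0.07) overlapped between strains and were not called (adjusted p = 0.16 to 0.25). SSC1 was called higher after quantile and cyclic loess normalization (0.22 and 0.24), while HSP60 and HSP10 were called lower after median centring (-0.21 and -0.17).

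In the endoplasmic reticulum the oxidase gene ERO1 and the J-protein gene JEM1 rose as deposited, and the J-protein gene SCJ1 fell. The rises were 33.3% and the fall 16.7% of the 6 genes, against 37.1% and 29.1% of all genes. The most abundant chaperones were not called. ERO1 (YML130C), which passes disulfide bonds to protein disulfide isomerase, rose from 344, 374 and 361 to 539, 530.5 and 604 (1.55-fold, log2 difference 0.63, SE 0.064, adjusted p = 1.3e-05). Its partner PDI1 (YCL043C) was at 1208 to 1314 in wild type and 1195 to 1302 in H4R45H, and was not called (log2 difference -0.01, adjusted p = 0.81), while quantile and cyclic loess normalization gave called differences of 0.14 and 0.16. KAR2 (YJL034W), the Hsp70 of this compartment and a known target of the unfolded protein response, was at 1367, 1417 and 1322 against 1330.5, 1417 and 1537. The difference of 0.06 was not called (SE 0.056, adjusted p = 0.36), and it was called at 0.22 and 0.24 after quantile and cyclic loess normalization. LHS1, an exchange factor for Kar2, had a difference of 0.08 (adjusted p = 0.25), although its mutant arrays, at 159 to 169.8, lay just above those of wild type at 153 to 158.

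The J-proteins of Kar2 differed from each other. SCJ1 (YMR214W) fell from 408, 419.7 and 387 to 302, 328 and 335, a log2 difference of -0.33 (SE 0.061, adjusted p = 7.7e-04), the largest fall of the 35 genes, with -0.24 to -0.44 over the alternatives. JEM1 (YJL073W), which also acts in nuclear fusion, rose from 69.0, 67.3 and 65.5 to 78.7, 77.9 and 81.6 as deposited (1.18-fold, log2 difference 0.24, SE 0.071, adjusted p = 0.012). It is a dim gene, and the difference was -0.05 after quantile and -0.011 after cyclic loess normalization.

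The arrays of one strain did not vary independently over these genes. Among the 3 H4R45H arrays, replicate 1 had the lowest signal in 29 of the 35 genes and replicate 3 the highest in 24, against 35% and 36.8% of all genes. The median deviation from the strain mean over the 35 genes was -0.10 log2 units on replicate 1 and 0.08 on replicate 3, while over all genes it was 0.00 on both. In the 16 genes that rose these deviations were -0.17 and 0.19. In wild type, replicate 2 was highest in 22 of the 35 genes (32.9% of all genes), with a median deviation of 0.04. The deviations thus ran together across these genes, so their calls are not independent of each other. Without H4R45H replicate 1 the counts were 17 higher and 5 lower, and without replicate 3 they were 16 and 7. Over the 6 ways of leaving out 1 array they were 15 to 17 higher and 4 to 7 lower. The shares of all genes called in those fits are not given here. The part of culture state, RNA quality or array handling in this shared spread was not tested.

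**Figure D4:**
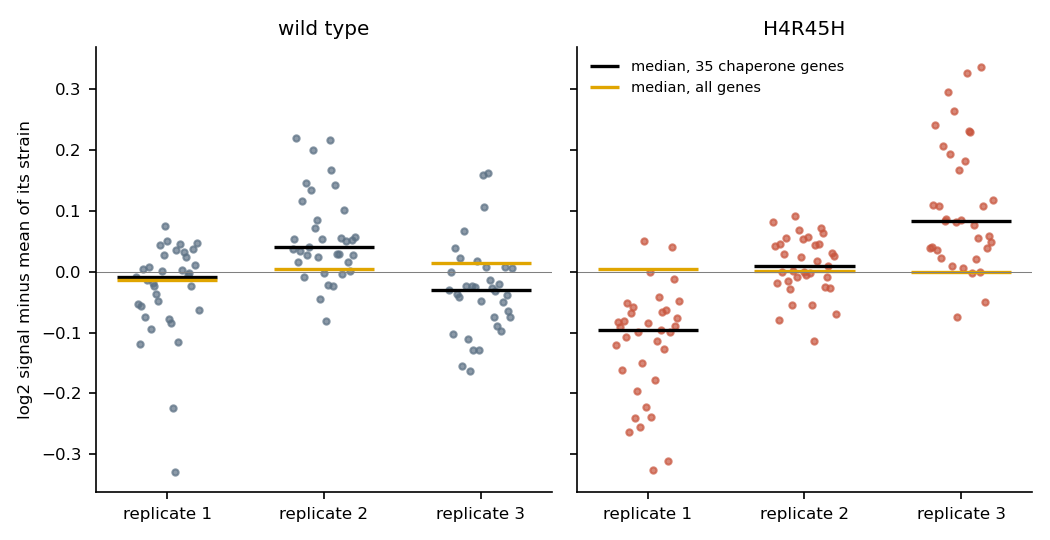
Deviation of each array's log2 signal from the mean of its own strain, for the 35 chaperone genes (points), with their median (black bar) and the median of all genes (yellow bar). The chaperone genes lie low on H4R45H replicate 1 (median -0.10) and high on replicate 3 (median 0.08), where the median of all genes is 0.00. All genes were not matched to the 35 for brightness.

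Other chaperone genes were grouped in 4 lists of 57 genes in all. Of 22 further cytosolic chaperones and cochaperones 6 rose (27.3%, against 37.1% of all genes) and 8 fell (36.4%, against 29.1%), with a median log2 difference of -0.14. The small heat shock protein gene HSP26 (4.6-fold) and HSP12 (1.69-fold), which protects membranes under stress, rose, and so did the J-protein gene APJ1, from 36.2 ± 3.78 to 73.2 ± 2.65 (SD, n = 3; 2.03-fold). The log2 difference of APJ1 was 1.02 as deposited, 0.57 after quantile normalization, 0.63 after cyclic loess and 0.52 with a pseudocount of 50, with a call in each. SNL1, a membrane-bound exchange factor for Hsp70, was at 228 ± 12.7 in wild type and 117 ± 7.70 in H4R45H (SD, n = 3), a called log2 difference of -0.96 (SE 0.073, adjusted p = 1.7e-06). This was a larger fall than in any of the 35 genes, and was -0.98 to -1.07 under the other scalings.

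Genes for early folding of new chains had no rise among them. The list held the nascent polypeptide-associated complex, which meets chains at the ribosome exit, and prefoldin, which hands actin and tubulin to the chaperonin. Of 9 genes 6 fell, and 5, 7 and 5 were lower after quantile normalization, median centring and cyclic loess, with none higher in any of them. Over all genes 29.1% were lower as deposited, and 36.8%, 38.6% and 30.4% were lower under those scalings. GIM3 (log2 difference -0.56) and PAC10 (-0.55) of prefoldin fell most, and BTT1 (-0.44) and EGD2 (-0.26) of the nascent chain complex fell too. After quantile normalization EGD2 was at -0.09, still called, and the dim BTT1 at -1.20. With a pseudocount of 50 BTT1 was at -0.16, still called.

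Further mitochondrial chaperones gave 4 rises and 3 falls among 12 genes, with a median of -0.0026. These shares of 33.3% and 25% lay near those of all genes (37.1% and 29.1%). ECM10, a second mitochondrial Hsp70, rose 3.51-fold from a dim 24.1 ± 2.0 to 84.2 ± 3.96 (SD, n = 3; adjusted p = 1.3e-07). Its log2 difference was 1.81 as deposited, 1.33 after quantile normalization and 0.86 with a pseudocount of 50, with a call in each. JAC1, a J-protein for iron-sulfur cluster assembly, rose 1.51-fold, a call lost after quantile normalization (log2 difference 0.18), and TCM62 rose 1.34-fold (log2 difference 0.43, and 0.21 after quantile normalization, still called). MGE1, the exchange factor for Ssc1, fell, with a log2 difference of -0.39 (SE 0.056, adjusted p = 1.3e-04), next to the rise of MDJ1 and the uncalled SSC1 of the same Hsp70 cycle.

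Further folding factors of the endoplasmic reticulum gave 5 rises and 3 falls among 14 genes, with a median of -0.02. Those shares, 35.7% and 21.4%, were also near 37.1% and 29.1%. SIL1, an exchange factor for Kar2, rose 1.65-fold (adjusted p = 2.2e-05) and the disulfide isomerase relative MPD1 1.32-fold. EPS1, another relative of PDI1, and SEC63, the J-protein of the translocation pore, fell by 0.44 and 0.37 on the log2 scale. The unfolded protein response genes HAC1 (-0.03, adjusted p = 0.66) and IRE1 (-0.13, adjusted p = 0.13) were not called. HAC1 is controlled by splicing of its RNA, which the probe set signal does not show. Under the other 3 scalings the cytosolic list had 5 to 6 rises and 6 to 13 falls, the mitochondrial list 2 to 3 and 3 to 4, and this list 2 to 6 and 5 to 6.

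**Figure D5:**
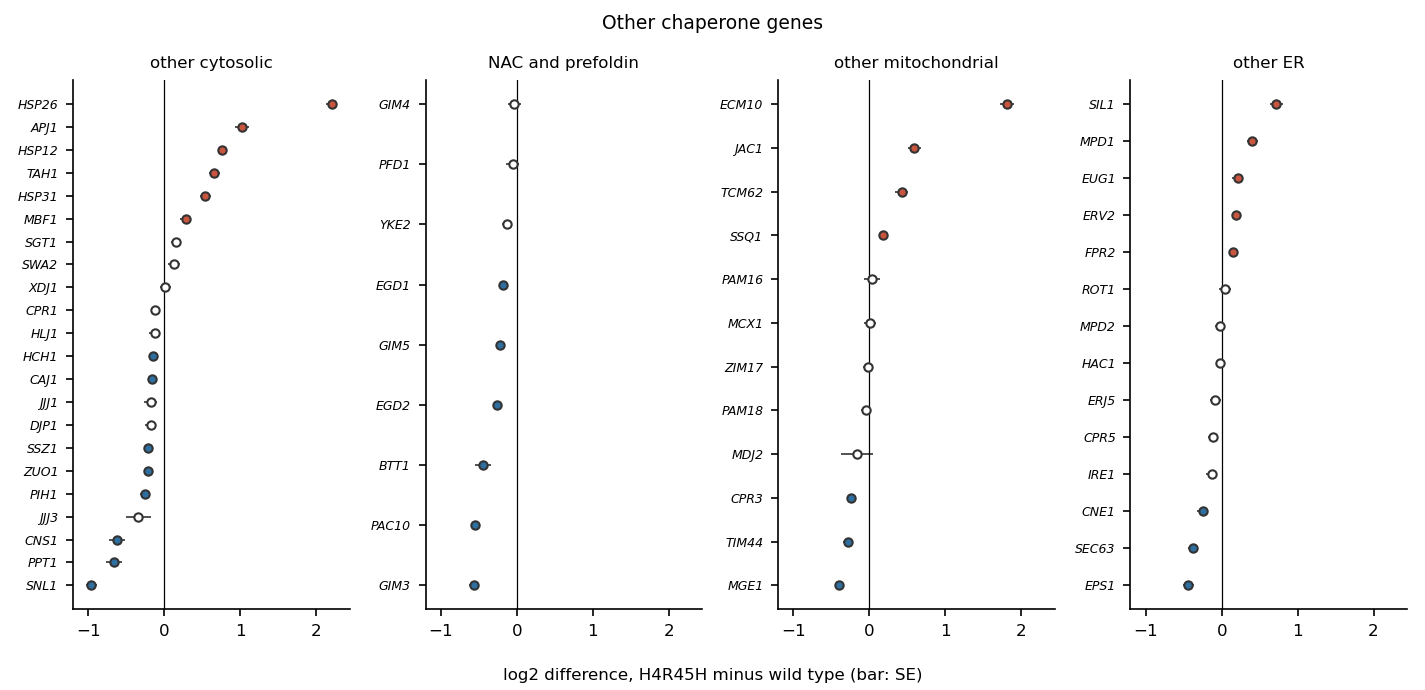
Log2 difference between strains with its SE (horizontal bar) for 57 other chaperone genes in 4 lists, ordered by size; red points were called higher, blue points lower and open points were not called. HSP26 and ECM10 stand furthest to the right, and no gene of the nascent chain complex (NAC) and prefoldin list was called higher.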

How the data were processed

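RNA of 6 Saccharomyces cerevisiae samples was hybridised to Affymetrix arrays after conversion of about 20 µg of total RNA to biotinylated cRNA, per the labels. The authors deposited 1 intensity per probe set on a linear scale, and the submitters' processing notes name MAS5, without version or scaling target. Groups came from the titles. Gene names came from GEO's platform annotation (5498 of 5716 probe sets had 1 gene, 218 none), with symbols updated by Entrez identifier. Where a gene had several probe sets, the brightest by mean log2 signal stood for it. No column of another sample was present (0). The 7 values at 0 were set to 0.1. No further scaling was applied.

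limma 3.58.1 in R 4.3.3 (lmFit, eBayes with trend) fitted all probe sets, two-sided, with Benjamini-Hochberg adjustment, and was tested on simulated data. There it recovered 40% of changes of 0.25 log2 units, 94% of those of 0.5 and 100% of those of 1. A gene not called may thus still differ by a small amount. Isoform contrasts used exact permutation in SciPy 1.17.1. The 35 genes, lists and alternatives were chosen with earlier results of these data known. All 35 genes were reported, and up to 4 called genes per further list by size, together with HAC1 and IRE1, which were named after their values were seen. Probe sequences and promoters were not used here. Signal shared between related copies (SSA1 and SSA2, SSA3 and SSA4, SSB1 and SSB2, HSP82 and HSC82) was therefore not tested. The number of arrays limits the precision.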

Additional observations from a re-analysis of the deposited data

How the results depend on the processing

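The number of genes that rose stayed at 14 to 21 over the alternatives, except that 10 were left with a minimum of 1.5-fold. The number that fell was less stable, with 2 under quantile normalization, 2 under cyclic loess, 10 under median centring and 0 at 1.5-fold. Pairing by replicate number was not seen: same-numbered arrays of the strains had correlations of deviations of 0.03, -0.02 and -0.03. Of 6 arrays 0 correlated best with their own number, but a weak pairing could be missed with 3 arrays per strain. With the replicate block 17 of the 35 genes were higher and 6 lower, where 35.9% and 28.0% of all genes were. The calls it added were SSA1, higher at 0.14 (adjusted p = 0.048), and HSC82, lower at -0.12 (adjusted p = 0.028). Rescaling moved the share of higher among called genes from 56.1% to 42.2% (quantile), 44.0% (median centring) and 50.3% (cyclic loess) over all genes, and from 76.2% to 90.9%, 58.3% and 91.3% over the 35.

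The cytosolic median moved to 0.098 after median centring, 0.27 after cyclic loess and 0.16 with a pseudocount of 50. Median centring also moved the mitochondrial median to -0.028, quantile normalization to 0.22 and cyclic loess to 0.24. That of the endoplasmic reticulum moved to -0.032 with median centring and 0.11 with cyclic loess. Leaving out single arrays gave medians of 0.15 to 0.23, 0.037 to 0.12 and 0.057 to 0.088 in the same order. All 7 isoform contrasts kept their direction under each alternative run.

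After quantile normalization the log2 difference changed sign for SSA2 (0.012), SSB2 (0.057), YDJ1 (0.067), HSC82 (0.077), STI1 (0.053), HSP60 (0.045), HSP10 (0.087), LHS1 (-0.0074), JEM1 (-0.054) and PDI1 (0.14). Cyclic loess had that effect for SSA2 (0.036), SSB1 (0.029), SSB2 (0.072), YDJ1 (0.082), HSC82 (0.066), STI1 (0.073), HSP60 (0.062), HSP10 (0.093), JEM1 (-0.011) and PDI1 (0.16). With median centring it occurred for FES1 (-0.028), SBA1 (-0.030), SSC1 (-0.028), KAR2 (-0.044) and LHS1 (-0.020). Leaving out single arrays gave -0.21 to 0.052 for STI1 (positive without H4R45H replicate 1) and -0.052 to 0.023 for PDI1 (positive without H4R45H replicate 1 or wild type replicate 1). The cause of these changes was not tested. CUR1 and JEM1 lie in the dimmest 25% of probe sets and have no value without them. No paired form of the isoform contrasts was run.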
